A study of Mus musculus with 6 samples.

Results

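The Wnt pathway was examined in the lungs of leptin-deficient mice given leptin or saline. Its members were taken by name from the array annotation: every probe set annotated to a single symbol of a Wnt ligand, a Frizzled receptor (Fzd), Lrp5 or Lrp6, a secreted antagonist of the Sfrp or Dkk families or Wif1, or one of the intracellular members Dvl, Ctnnb1, Axin1, Axin2, Lef1 and Tcf7l2. This gave 73 probe sets of 47 genes, out of 22626 probe sets in all. There were 23 probe sets of 19 ligands, 20 of 11 receptors, 13 of 9 antagonists and 17 of 8 intracellular members. Of the mouse genes that such names cover, Fzd10 alone had no probe set among them.

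All 6 animals were labelled as ob/ob females of strain B6.V-Lepob/J at 1 month of age, and each array held the lung of 1 animal. These mice carry a mutation of Lep and lack functional leptin, the fat-cell hormone that limits food intake, and no lean mice were analysed here. The treatment was leptin in 3 animals and saline in 3, and the sources used here give no dose, route or duration. Total RNA was amplified and measured on Affymetrix Mouse 430A arrays. The question is how lung RNA differs once the absent hormone is given.

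Wnt ligands are secreted, lipid-modified glycoproteins that bind a Frizzled receptor together with the co-receptor Lrp5 or Lrp6. In the canonical branch Dishevelled (Dvl) then disables a complex built on Axin, beta-catenin (Ctnnb1) escapes degradation, and it switches on genes with Lef1, Tcf7l2 and related factors, Axin2 among them. In the lung, Wnt2 and Wnt2b from the mesenchyme specify the lung field, Wnt7b from the epithelium drives growth of mesenchyme and vessels, and Wnt5a acts mainly through branches that do not use beta-catenin.

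The array of saline replicate 1 stood apart and was kept out of the main comparison, which thus had 3 leptin and 2 saline arrays. Its log2 values correlated across probe sets at 0.438 to 0.447 with the other arrays, which correlated with each other at 0.973 to 0.978. Sex-linked genes did not settle whether it went with its label of a female. Y-linked Uty read 1108.1 there against 12.7 to 67.3 elsewhere on one probe set and 301.9 against 20.9 to 72.5 on the other, and Y-linked Eif2s3y read 84.9 against 1.2 to 3.4, but 84.3% of all probe sets that were dim on the other arrays read above their range here. Xist, which is expressed from the inactive X of females, read above the other arrays on 2 of its 3 probe sets (7896 against 2697.3 to 3645.6, and 275.6 against 122.3 to 260.3) and below them on the other (578 against 1055.2 to 1553). The surfactant gene Sftpc, the defining marker of alveolar type II cells, read 23964 to 29732 on the other 5 arrays on its brighter probe set. That probe set read 4087 on saline replicate 1. The dimmer Sftpc probe set went the other way, at 3.6 to 31.7 on those 5 arrays and 683.2 on saline replicate 1. Of the Sftpc probe sets, only the brighter thus bore out the tissue label of those 5 arrays. Other lung markers were also bright on them. Sftpa1, of type II cells, read 20275.5 to 22973.3 and Ager, of type I cells, 8443.1 to 11743.3 on their brightest probe sets. Values are linear intensities, and each array had been scaled by the authors to a trimmed mean of 500.1. Changes are differences of log2(intensity + 22.1), leptin minus saline, with the standard error (SE) from limma. That SE draws on the variance of all tested probe sets as well as on the probe set's own.

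With leptin, Wnt2 and both Axin1 probe sets read lower and Fzd1 read higher on the 5 arrays, with changes of -0.42, -0.37 and -0.33, and 0.70. None of the 41 member probe sets that passed the filter on dim values reached an adjusted p under 0.05 in limma, against 0.0442% of all tested probe sets. The members with an unadjusted limma p under 0.05 were Wnt2, Fzd1 and 1 Axin1 probe set, 3 of 41 (7.32%), beside 4.6% of all tested. Those 41 probe sets were 56.2% of the members (70% of all probe sets passed the filter) and belonged to 29 of the 47 genes. The other 32 were dim, that is, in the lowest 30% by mean log2 value, and 18 genes were represented only by dim probe sets: Wnt3, Wnt5b, Wnt8a, Wnt8b, Wnt9a, Wnt9b, Wnt10a, Wnt10b, Wnt16, Fzd5, Fzd9, Dkk1, Dkk2, Dkk4, Wif1, Dvl3, Lef1 and Tcf7l2. Among the tested members 16 read higher and 25 lower with leptin, with a median change of -0.037, beside 50.3% higher and a median of 0.0012 over all tested probe sets. Changes ran from -0.42 for Wnt2 to 0.70 for Fzd1, and 1 of 41 was at least 1.5-fold. The residual SD had a median of 0.19 log2 units in members and also 0.19 in all tested probe sets, so members were measured about as tightly as the rest. In bulk lung, fewer cells of a type and less RNA per cell cannot be told apart.

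**Figure D1:**
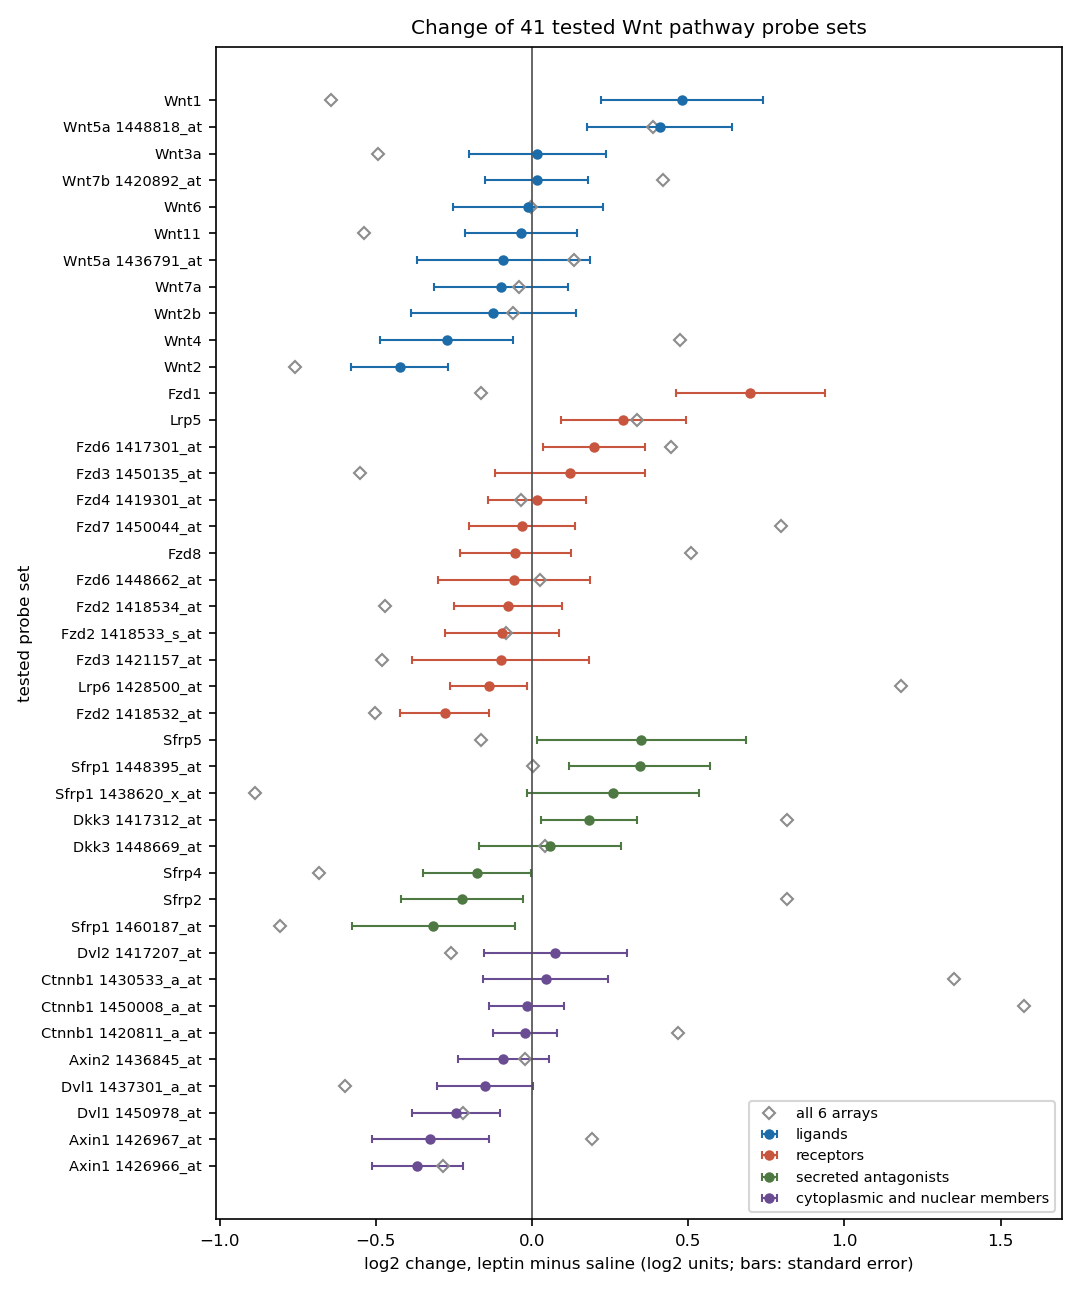
Log2 change with leptin (x axis, log2 units; filled points, 5 arrays, with SE bars) of the 41 tested member probe sets, grouped by role, with the value on all 6 arrays as an open diamond. Filled points lie between -0.42 (Wnt2) and 0.70 (Fzd1), while the diamonds spread from -0.89 (Sfrp1) to 1.57 (Ctnnb1).

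Among the ligands, Wnt2 (Entrez Gene 22413) read 309.7, 332 and 346 with leptin and 461 and 436.6 with saline. The groups did not overlap, and every leptin array was below both saline arrays. Its means were 329 ± 18.3 (SD, n = 3) and 449 ± 17.3 (SD, n = 2), and the change was -0.42 ± 0.16 (SE; limma unadjusted p = 0.0203, adjusted p = 1.00). Saline replicate 1 read 921.8, above all the others, so with all 6 arrays the change was -0.76 ± 0.34, with limma at an unadjusted p of 0.0676. The call at the unadjusted level was lost without saline replicate 2 (-0.39, limma unadjusted p = 0.108) and without saline replicate 3 (-0.46, limma unadjusted p = 0.0607). Wnt2 is made by lung fibroblasts, and of 14 tested fibroblast markers 11 read higher with leptin and 3 lower, with a median of 0.134. In limma 6 of the 14 had an unadjusted p under 0.05, beside 4.6% of all tested probe sets, and 0 had an adjusted p under 0.05. Their summed intensity was 70083 to 72150 with leptin and 61816 to 68014 on saline replicates 2 and 3. The markers ran from 0.71 for Col3a1, a fibrillar collagen, through 0.10 for Dcn and 0.09 for Pdgfra to -0.05 for Tcf21, -0.15 for Inmt and -0.22 for Limch1. The mesothelial markers Msln and Upk3b were both lower, at -0.39 and -0.20, and their list summed to 2633 to 2781 with leptin and 3000 to 3339 with saline. Other lists also went one way: smooth muscle markers read higher in 7 of 7 and B cell markers in 5 of 5, with medians of 0.245 and 0.456. Neutrophil markers read higher in 5 of 5 and ciliated cell markers in 4 of 4, with medians of 0.661 and 0.151, but their summed intensities overlapped between groups. Red cell markers read lower in 4 of 4, with a median of -0.974. The remaining lists held markers of both signs. The red cell list held 2 genes at an adjusted limma p under 0.05, and its summed intensity was 4105 to 5483 with leptin and 9666 to 12102 with saline. The part of these cell types in the values of Wnt2 and the other members was not tested.

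Wnt1, a ligand best known from the midbrain, read 140.7, 126.3 and 142.3 with leptin and 70.6 and 116.9 with saline, without overlap. Its change was 0.48 ± 0.26, and it was 0.19 without saline replicate 2 and 0.77 without saline replicate 3 (limma unadjusted p = 0.0351). On saline replicate 1 it read 1155.8, which turned the 6-array value to -0.64. For Wnt5a, the brighter signal with leptin on one probe set (127.8, 141.6 and 165.8, against 108.5 and 98.4) was again without overlap, at 0.41 ± 0.23. Saline replicate 1 also read 108.5 here, and the 6-array change was 0.39 ± 0.30. The other Wnt5a probe set overlapped between groups and had the opposite sign, at -0.09 ± 0.28, so the Wnt5a probe sets disagreed. Wnt4, a ligand of the kidney and reproductive tract that is also made in lung, read 201.7, 145.2 and 154.4 with leptin and 190.5 and 219.9 with saline, which overlapped, at -0.27 ± 0.21. It read only 26 on saline replicate 1, and the 6-array value was 0.47.

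The other tested ligands were within 0.13 log2 units of no change on the 5 arrays. Wnt7b, the epithelial ligand, read 600.5, 456.6 and 496.7 with leptin and 480.6 and 539.7 with saline on its brighter probe set, at 0.01 ± 0.17. Wnt2b, the partner of Wnt2 in lung specification, was at -0.12 ± 0.26, although its close relative Wnt2 was at -0.42; the difference between them was not tested. Wnt3a, Wnt6, Wnt7a and Wnt11 were at 0.02, -0.01, -0.10 and -0.04, and their groups all overlapped. Wnt genes also sit beside each other in the genome: RefSeq lists Wnt6 and Wnt10a, Wnt3a and Wnt9a, Wnt9b and Wnt3, and Wnt10b and Wnt1 as adjacent protein-coding genes, 4 pairs in all. In each pair at least 1 partner was dim. Wnt9b, a dim probe set left out of the test, read 59.4, 18.1 and 24.7 with leptin and 5.2 on both saline arrays, without overlap, while Wnt3 read 19.4, 20.4 and 1.3 against 2.9 and 1.7. The saline values of both genes lie under the 10th percentile of their arrays (16.4 to 19.3 on the 5 arrays), and no fold is given for them.

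Among the receptors, Fzd1 (Entrez Gene 14362), a Frizzled that can act through beta-catenin, read 258.5, 213.2 and 169.1 with leptin and 103.1 and 142.2 with saline. All 3 leptin arrays lay above both saline arrays. The means were 214 ± 44.7 (SD, n = 3) and 123 ± 27.6 (SD, n = 2), and the change was 0.70 ± 0.24 (SE; limma unadjusted p = 0.0138, adjusted p = 1.00). It was the only member that met the rule stated by the series (at least 1.5-fold, p under 0.05 and most pairwise comparisons in one direction), a rule met by 1.01% of all tested probe sets. Without saline replicate 2 the change was 0.50 (limma unadjusted p = 0.113), and with the replicate number as a block it was 0.56 (limma unadjusted p = 0.0528), so both ended that call. Saline replicate 1 read 842.4, the highest of the 6 arrays, and the change over all 6 was -0.16 ± 0.74.

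On one probe set Fzd2 read 559.6, 531.2 and 535.7 with leptin and 686 and 639.8 with saline, lower without overlap, at -0.28 ± 0.14 (limma unadjusted p = 0.076). Its other probe sets had the same sign but overlapped, at -0.10 ± 0.18 and -0.08 ± 0.17. Fzd1 and Fzd2 belong to 1 subfamily of Frizzled receptors together with Fzd7. The tested Fzd7 values were 392.8, 521.2 and 513.8 under leptin against 497.4 and 469.9 under saline, at -0.03 ± 0.17. The subfamily thus held the highest and the lowest change among tested receptor probe sets and one near 0, and the differences between these genes were not tested. Fzd6, which acts in planar polarity, did not overlap on its brighter probe set, at 756, 1024.3 and 777.2 with leptin and 715.4 and 751.9 with saline. The gap between the groups, 756 against 751.9, was narrow. Its change was 0.20 ± 0.16, or 0.06 without leptin replicate 2, and its other probe set was at -0.06 ± 0.24. Fzd4, the receptor of the vascular ligand Norrin, read 1144.4, 1143.9 and 1039.9 with leptin and 939.5 and 1276.6 with saline, at 0.02 ± 0.16. Fzd8 was at -0.05, and the tested Fzd3 probe sets at 0.12 and -0.10.

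On their tested probe sets the co-receptors leaned opposite ways, and the difference between them was not tested. Lrp5 read 186, 250.3 and 235.7 with leptin and 177.2 and 178 with saline, and Lrp6 read 1367, 1413.1 and 1380.7 with leptin and 1502.8 and 1557.1 with saline. Neither overlapped between groups, as was so for 19.6% of all tested probe sets. The changes were 0.29 ± 0.20 for Lrp5 and -0.14 ± 0.12 for Lrp6, with unadjusted limma p-values of 0.172 and 0.286. Lrp6 read 77.7 on saline replicate 1, so its 6-array value turned to 1.18 ± 1.07. A dim Lrp6 probe set left out of the test overlapped, at 55.7, 87.2 and 131 with leptin and 69.1 and 123.4 with saline.

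Among the secreted antagonists, which bind Wnt (Sfrp, Wif1) or block Lrp5 and Lrp6 (Dkk1, Dkk2, Dkk4), no tested probe set had an unadjusted limma p under 0.158. Of 8 tested, 5 read higher and 3 lower. The Sfrp1 probe sets split: one read 305.2, 219.3 and 203.5 with leptin and 215.3 and 156.3 with saline (0.34 ± 0.23), and the next read 87.9, 71.7 and 94.4 against 109.2 and 111.4 (-0.32 ± 0.26). The first overlapped between groups and the second did not, so no direction is given for Sfrp1. The first was at 0.55 without saline replicate 2 and 0.14 without saline replicate 3. Another, of a type that can match several transcripts, was at 0.26 ± 0.27 and read 1543.5 on saline replicate 1 against 84.8 to 172.7 elsewhere. Sfrp2 read 399.7, 282.1 and 437.7 with leptin and 422.2 and 442.7 with saline, at -0.22 ± 0.20, or -0.05 without leptin replicate 2, and 30.1 on saline replicate 1. Sfrp4 was at -0.18 ± 0.17.

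Sfrp5 was the least settled of the tested members. It read 175, 202.2 and 165.3 with leptin but 78.1 and 229.4 on the saline arrays, which lie on both sides of the leptin values. Its change of 0.35 ± 0.33 carried the largest SE of the 41, and without saline replicate 3 it was 1.01 (limma unadjusted p = 0.00551). Dkk3, the divergent member of the Dkk family that is not known as an Lrp6 blocker, read 654.9, 601.5 and 664.3 with leptin and 621.9 and 505.5 with saline on one probe set (0.18 ± 0.15) and was at 0.06 ± 0.23 on the other. The first was at 0.33 without saline replicate 2 and 0.04 without saline replicate 3. Dkk1, Dkk2, Dkk4 and Wif1 were dim: Dkk1 read 24 to 77.1 with leptin and 4.3 and 25.8 with saline, and Dkk2 between 3.7 and 7 on all 5 arrays.

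Among the intracellular members, Axin1 (Entrez Gene 12005), the scaffold of the complex that marks beta-catenin for degradation, read lower on both of its probe sets. The first read 447.5, 477.7 and 451.6 with leptin and 601.7 and 594.5 with saline, and the second 264.1, 252.7 and 194.3 against 296.3 and 304.1. Neither overlapped between groups. The means of the first were 459 ± 16.4 (SD, n = 3) and 598 ± 5.09 (SD, n = 2), and its change was -0.37 ± 0.14 (limma unadjusted p = 0.028, adjusted p = 1.00). The second was at -0.33 ± 0.19 (limma unadjusted p = 0.113). The call of the first was lost without leptin replicate 1 or 3 and without either saline array, with values from -0.40 to -0.33 over the alternatives and unadjusted limma p-values of up to 0.111. Saline replicate 1 read 499.7 and 88.1 on the pair, and over 6 arrays they were at -0.28 ± 0.23 and 0.19 ± 0.49, so the second turned sign. Both probe sets come from the same animals and are not separate evidence.

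Dvl1, a Dishevelled that couples Frizzled to the Axin complex, read 742.6, 844.5 and 742.1 with leptin and 883.7 and 961.3 with saline, without overlap, at -0.24 ± 0.14. Its other probe set overlapped, at -0.15 ± 0.15 (-0.27 without leptin replicate 3 and -0.09 without leptin replicate 1 or 2), and read 2934.4 on saline replicate 1. Dvl2 was at 0.07 ± 0.23. Beta-catenin was close to no change on its 3 probe sets: Ctnnb1 read 6851, 7009 and 6795 with leptin and 7111 and 6883 with saline on the brightest, at -0.02 ± 0.10, and the others were at -0.02 ± 0.12 and 0.04 ± 0.20. The SE of the brightest was the smallest among members. On saline replicate 1 these 3 read 2507.4, 86.9 and 91.4, and the 6-array changes of 0.47, 1.57 and 1.35 rested on that array. Axin2, a transcriptional target of the canonical branch, read 790.7, 740 and 648.4 with leptin and 790.7 and 755.5 with saline, at -0.09 ± 0.15, and its groups overlapped. Beside the lower Axin1 values, the tested probe sets of Axin2 and Ctnnb1 were thus within 1 SE of no change.

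Lef1 and the 4 Tcf7l2 probe sets, which encode DNA-binding partners of beta-catenin, were dim on the 5 arrays. One Tcf7l2 probe set did not overlap, at 57.1, 74 and 68.8 with leptin and 19 and 36.6 with saline, and the other 3 overlapped. As a dim probe set it was left out of the main test, and no fold is given. Without the filter, it and the dim Wnt9b probe set had an unadjusted limma p under 0.05, as did 4.78% of all probe sets. Lef1 read 51.8 to 83.2 with leptin and 47.5 and 100.6 with saline.

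**Figure D2:**
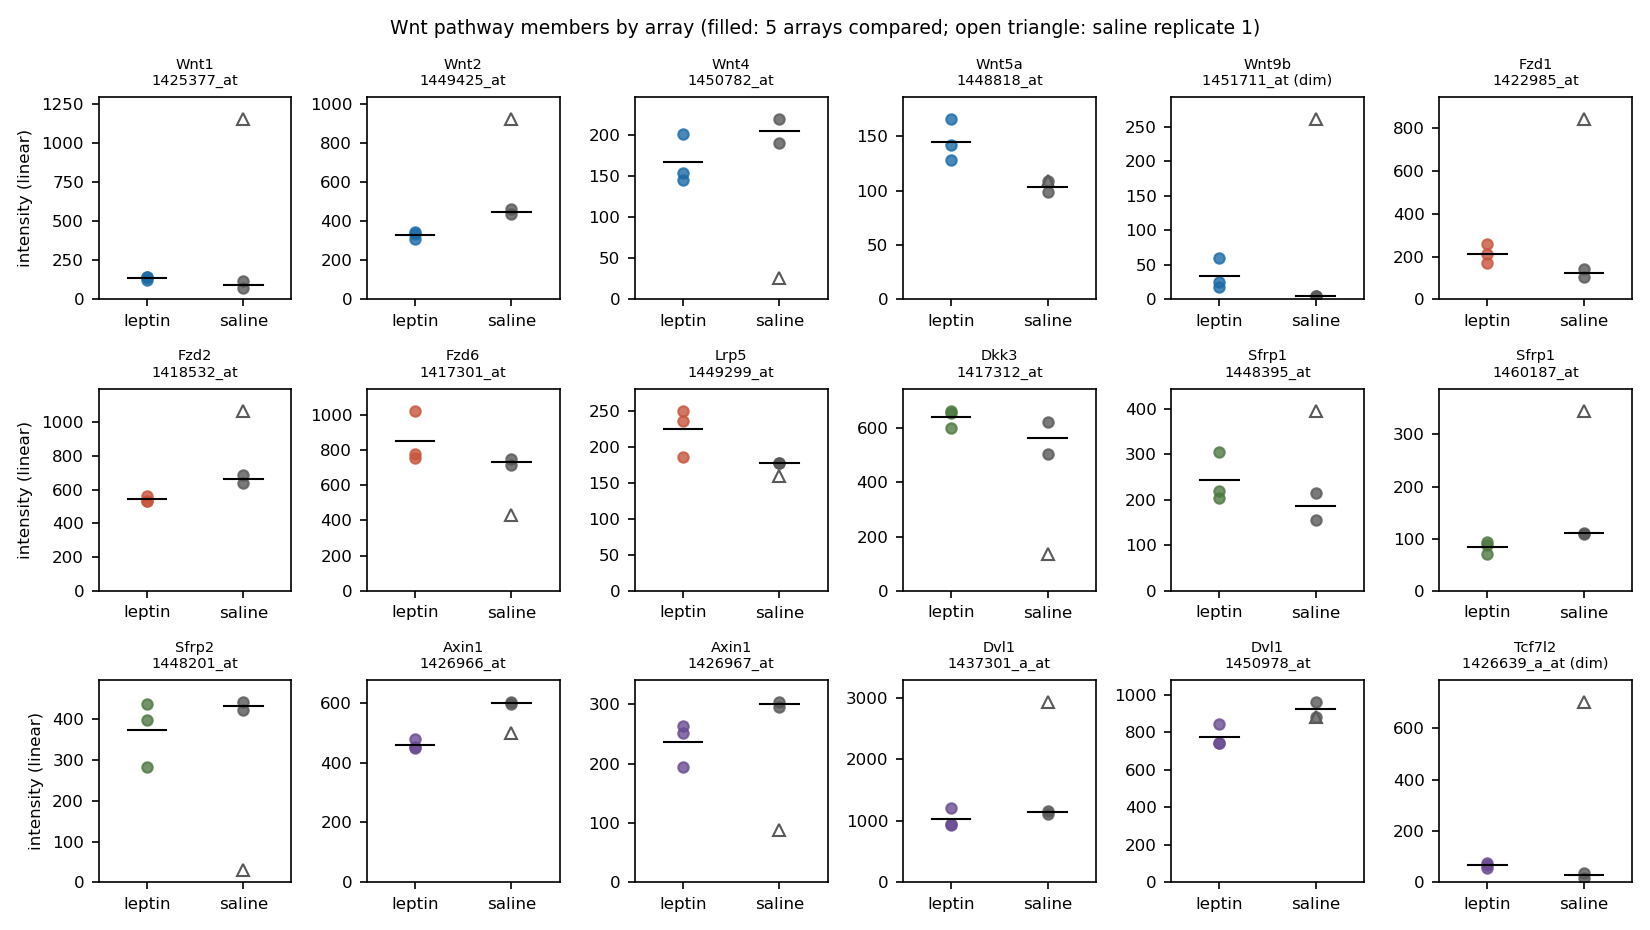
Intensity (y axis, linear, from 0) of the 18 named member probe sets on each leptin and saline array, with bars at the group means of the 5 compared arrays and saline replicate 1 as an open triangle. For Wnt2 the leptin points (309.7 to 346) lie below the filled saline points (436.6 and 461), and the triangle stands at 921.8.

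Over all 73 member probe sets the groups did not overlap in 15, 8 higher and 7 lower with leptin, which is 20.5% beside 19.4% of all probe sets (10.1% higher and 9.28% lower). The members' share was thus near that of the whole array. Of the 41 tested, 12 did not overlap (29.3%), 5 of them higher (12.2%) and 7 lower (17.1%). The share of all tested probe sets was 19.6% (9.92% higher and 9.66% lower), and the difference between these shares was not tested. The genes with several tested probe sets numbered 9, and the signs agreed within 4 of them: Axin1, Dvl1 and Fzd2, all lower, and Dkk3, higher. In the other 5 (Ctnnb1, Fzd3, Fzd6, Sfrp1 and Wnt5a) they did not.

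The promoters of Wnt2 and Fzd1 are shown because these were the ligand and the receptor with the smallest p, in opposite directions, and that of Dkk1 because it held the word bound by Tcf and Lef factors at 2 places. Each runs from 250 bases before to 50 bases after the RefSeq start (GRCm38.p6, minus strand, 5′ to 3′): chr6:18030396-18030695 for Wnt2, chr5:4758167-4758466 for Fzd1 and chr19:30549447-30549746 for Dkk1. Capitals mark the word, searched as CTTTGAA or as CTTTGAT or as CTTTGTA or as CTTTGTT on both strands.
Wnt2: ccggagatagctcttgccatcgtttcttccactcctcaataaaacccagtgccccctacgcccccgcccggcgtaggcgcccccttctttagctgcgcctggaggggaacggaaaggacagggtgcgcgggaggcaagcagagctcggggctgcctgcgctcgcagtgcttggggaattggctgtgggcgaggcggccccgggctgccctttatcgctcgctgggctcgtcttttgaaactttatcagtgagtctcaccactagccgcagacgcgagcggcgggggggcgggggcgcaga
Fzd1: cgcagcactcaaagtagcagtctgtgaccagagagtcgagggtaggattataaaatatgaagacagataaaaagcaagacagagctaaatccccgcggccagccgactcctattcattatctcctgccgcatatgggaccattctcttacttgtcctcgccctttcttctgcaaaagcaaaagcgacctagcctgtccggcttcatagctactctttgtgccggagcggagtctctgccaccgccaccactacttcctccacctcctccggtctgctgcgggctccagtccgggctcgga
Dkk1: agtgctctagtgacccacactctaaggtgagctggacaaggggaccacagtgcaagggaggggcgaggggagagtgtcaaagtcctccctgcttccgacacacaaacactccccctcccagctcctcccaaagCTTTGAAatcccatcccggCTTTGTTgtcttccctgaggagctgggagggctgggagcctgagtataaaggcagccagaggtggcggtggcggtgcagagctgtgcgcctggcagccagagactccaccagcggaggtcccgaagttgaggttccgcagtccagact
The Dkk1 window held 2 such words, and those of Wnt2 and Fzd1 held 0. RefSeq windows were found for 32 of the 47 member genes, and 7 of their 40 windows (17.5%) held the word, beside 16.9% of all 32851 windows. The 7 were those of Dkk1, Fzd7, Lef1, Tcf7l2, Wnt3, Wnt5b and Wnt11. A match describes these letters only. Dkk1 was dim on the 5 arrays, Wnt11 was at -0.04 and Fzd7 at -0.03, so the tested genes with a word lay close to no change.

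A list of 128 further pathway symbols gave 85 tested genes, each by its brightest probe set, of which 41 read higher, 43 lower and 1 neither with leptin, with a median change of -0.009. With limma, 4 higher and 4 lower of the 85 had an unadjusted p under 0.05, beside 4.6% of all tested probe sets, and 0 had an adjusted p under 0.05. Among targets 13 of 19 read higher. Mycn, a growth-promoting transcription factor, read 50.5, 93.7 and 101.8 with leptin and 226.5 and 149.9 with saline, at -1.03 ± 0.31 (limma unadjusted p = 0.00662, adjusted p = 0.881). Ccnd2, a cyclin of the G1 phase, read 1650.8, 1448.8 and 1258.7 against 1116.8 and 1009.3, at 0.44 ± 0.15 (limma unadjusted p = 0.0145). Birc5, a mitotic survival protein that is also a proliferation marker, was at 0.59 ± 0.26. These 3 targets did not share a direction.

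Outside the targets, Notum, a secreted enzyme that removes the lipid from Wnt and inactivates it, read 306.9, 403.2 and 307.2 with leptin and 509.4 and 447.8 with saline, at -0.48 ± 0.18 (limma unadjusted p = 0.0205). Lgr6, a receptor for R-spondins, which strengthen Wnt signals, read 288.6, 219.1 and 280.2 against 186.6 and 157.6, at 0.55 ± 0.20 (limma unadjusted p = 0.0191). Neither overlapped between groups. Tle1 and Tle5, from the list of nuclear factors, were at -0.40 ± 0.16 and 0.31 ± 0.13. Camk2d, a calcium-dependent kinase, was at -0.51 ± 0.20. In the planar polarity and calcium list 7 of 22 read higher and 15 lower, and the destruction complex and kinase list split at 7 and 6. Saline replicate 1 read 1431 for Lgr6 and 32.2 for Tle5, and with it they were at -0.42 and 1.83.

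With all 6 arrays, the comparison as the series designed it, limma gave 0 members at an adjusted p under 0.05 (0% of all tested) and 0 of 41 at an unadjusted p under 0.05 (0.385% of all tested). Of the 40 members tested in both comparisons 17 had opposite signs in them. The median size of a change went from 0.13 to 0.47 and the median SE from 0.19 to 0.44. Members read higher in 17 of 41, beside 51.3% of all tested, which became 22 with quantile normalization and 23 with a common median, so no direction is given for the members on 6 arrays. Groups did not overlap in 8 of 73 members (11%), beside 9.08% of all probe sets. These were 1 probe set each of Wnt2, Fzd2, Sfrp1, Axin1 and Dvl1, lower, and of Wnt5a, Lrp5 and Fzd6, higher. The 5 arrays are part of the 6, so each necessarily had the same direction there.

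On saline replicate 1 the members, like all probe sets, differed according to how bright they were elsewhere. Of the 32 dim probe sets, 28 read above the range of the other 5 arrays and 1 below, beside 84.3% above and 3.01% below for all dim probe sets. Wnt8a read 951.1 there against 39.1 to 62.5, Dvl3 845 against 26.5 to 96.8, and Tcf7l2 315.4 against 9.9 to 16 on one probe set. Of the 41 tested probe sets 16 read above the range and 14 below, beside 41.9% and 47% of all tested. Lrp6, Fzd7, Sfrp2 and Wnt4 were among those below, at 77.7, 67.9, 30.1 and 26, whereas Wnt1, Wnt3a, Wnt11 and Sfrp4 were above, at 1155.8, 722.9, 732.3 and 1512.3. The cause of this pattern was not tested.

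**Figure D3:**
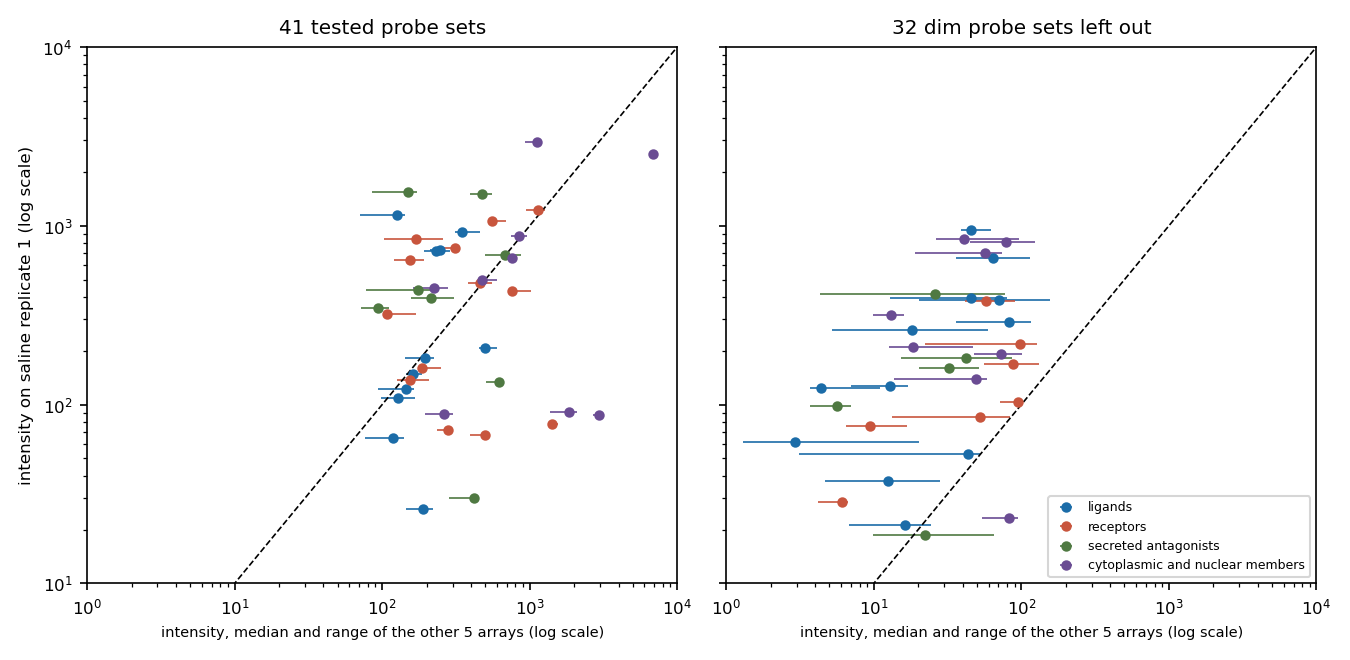
Intensity on saline replicate 1 (y axis, log scale) against the median and range of the other 5 arrays (x axis, log scale) for the 41 tested (left) and 32 dim (right) member probe sets, coloured by role, with a dashed line of equality. Nearly all dim members lie above the line (28 of 32 above the range), while tested members lie on both sides (16 above, 14 below).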

How the data were processed

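Lung RNA of 6 ob/ob mice was measured on Affymetrix Mouse 430A arrays, 3 with leptin and 3 with saline. Values were deposited as 1 linear intensity per probe set, and the software behind them is not given in the sources used here. Each array's trimmed mean (2% off each end) is 500.1, so the authors had scaled the arrays. On an array with weak signal such scaling lifts all values, and whether this applies to saline replicate 1 was not tested. Of 22690 probe sets, 64 controls were left out. Symbols came from the platform annotation (20380 probe sets with 1 symbol, 691 with several, 1555 with none), and all 47 member genes were found in the RefSeq table (GRCm38.p6) by Entrez ID with the same symbol. No build is named for the array, so gene coordinates are not given outside the promoter windows.

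The pseudocount of 22.1 in log2(intensity + 22.1) is the 10th percentile over all arrays. The dimmest 30% of probe sets, by mean log2 value, were not tested (15838 were), and limma 3.58.1 in R 4.3.3 (lmFit, eBayes with a trend, two-sided) was fitted to the rest, on 5 arrays and on all 6. Its p-values were adjusted by Benjamini-Hochberg with a limit of 0.05. The series' rule was applied with limma's unadjusted p, at least 1.5-fold and 6 of 9 pairwise comparisons at 1.5-fold (4 of 6 on 5 arrays). The fit was tested on simulated data. With so few arrays, changes are known only roughly. In eBayes the variance of each probe set is drawn toward a trend over all tested probe sets. The SE and p-values therefore measure the spread between these animals only in part. On 5 arrays the residual SD and SE were 0.040 and 0.14 for the first Axin1 probe set and 0.069 and 0.16 for Wnt2. For Sfrp5 the SE was instead the smaller, at 0.55 and 0.33. Members and lists were chosen with earlier results of these data known. Named members are those at an unadjusted p under 0.05, those without overlap and at least 0.32 log2 units apart, and the 4 with the smallest p in each role. Other pathway genes are named at an unadjusted p under 0.05, and others in the text were chosen after their values were seen.

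The labels do not say that replicate numbers pair animals. Arrays of the same number deviated from their groups together, with correlations of 0.144, 0.108 and 0.103 over probe sets, against -0.147 to 0.049 for different numbers. All exceed 0.1, but these correlations include saline replicate 1, the array kept out of the main comparison. Deviations from a shared group mean balance out, so the same-number correlations are not independent of each other. The values therefore cannot decide whether the numbers pair the animals, and a fit with the replicate block is an alternative only. Other alternatives were quantile normalization, a common median, other pseudocounts (1 and 80.1), no filter or one at 50%, no trend, array weights and leaving out each array.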

Additional observations from a re-analysis of the deposited data

How the results depend on the processing

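No member passed the adjusted threshold under any alternative run on 5 or 6 arrays. The 16 named member probe sets that were tested on 5 arrays kept their sign in every 5-array alternative that tested them. They were named from these same arrays, by a small p or by groups without overlap. Where groups do not overlap, leaving out an array or changing the pseudocount cannot turn the sign, so the kept signs are not separate support. On 5 arrays, the count at an unadjusted p under 0.05 went from 3 to 5 without a filter and to 5 without a variance trend, and ranged from 1 (without saline replicate 2) to 3 when an array was left out. On 6 arrays it went from 0 to 5 with array weights and ranged from 0 to 3 (without saline replicate 1). The member median on 5 arrays (-0.037) became 0.0166 without a filter, which adds the 32 dim probe sets, and -0.0927 with the replicate block, and ranged from -0.12 (without saline replicate 3) to 0.0264 (without leptin replicate 3). The member median on 6 arrays (-0.042) became 0.0481 with quantile normalization, 0.0913 with a common median and -0.27 without a filter, and ranged from -0.14 (without leptin replicate 1) to 0.0426 (without leptin replicate 3). A common median moved the median of all tested probe sets on 6 arrays from 0.02 to 0.17. The cause of these changes was otherwise not tested. The replicate block gave 2 members at an unadjusted p under 0.05 on 5 arrays, Wnt2 and Axin1, and changed no call other than that of Fzd1. As leptin replicate 1 has no partner on 5 arrays, the block and the fit without leptin replicate 1 gave each named member the same change. They are not separate alternatives for the size of a change. Without saline replicate 2 or 3 the lone saline array is assumed to vary like the leptin arrays. The members' signal lies near the array floor for the 32 dim probe sets (1.3 to 157.5 on the 5 arrays), where no change could be judged.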
